A study of Homo sapiens with 2 samples.

Results

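The genes described here code for integrin chains, for laminin chains, for NID1, NID2, HSPG2 and AGRN, which link the parts of the basement membrane, and for NPNT, an integrin ligand. They were chosen by symbol: every spot of an integrin alpha or beta chain, a laminin chain or one of the 5 other genes that the scanner software had not marked as unusable. The rule found 68 spots of 56 cDNA clones and 33 genes, of 41568 spots and 39573 clones on each array. With spots of any mark the same symbols covered 78 spots, 62 clones and 37 genes. No spot of ITGB1, the partner of most of the alpha chains below, was analysed here, nor was one of ITGA1, ITGA11 or ITGAD.

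RNA of the TSG101-deficient line Saos-2-2 was compared with RNA of the parental human osteosarcoma line Saos-2 on 2 spotted cDNA arrays that held 1 biological replicate each. Saos-2 cells carried no TSG101 shRNA, and Saos-2-2 is a stable clone of them that expresses it, isolated by puromycin resistance and GFP fluorescence. TSG101 is a subunit of ESCRT-I, a complex that sorts membrane proteins at endosomes. Both lines were grown in DMEM with fetal bovine serum without other treatment, Saos-2 RNA was labelled with Cy3 and Saos-2-2 RNA with Cy5 on both arrays, and no line with a control shRNA or an empty vector was hybridised. Effects of the shRNA, of cloning and selection, and of a dye bias particular to a gene therefore cannot be told apart. The labels do not say whether each array had its own extract of Saos-2 RNA, so that the p-values measure the spread between these arrays. In cultures such as these, fewer cells that express a gene and less of its RNA per cell cannot be told apart either.

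Integrins are cell surface receptors made of 1 alpha and 1 beta chain. They bind matrix proteins or molecules on other cells outside the cell and hold actin-linked adaptors inside it. The alpha chain largely sets which ligand is bound: collagens, laminins, proteins with the tripeptide RGD such as fibronectin, or, for the leukocyte chains, partners on other cells. Laminins are trimers of an alpha, a beta and a gamma chain that form the sheet of the basement membrane, to which nidogens and the proteoglycans perlecan and agrin join further parts. Osteoblast-like cells adhere to bone matrix through integrins.

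A value below is a log2 ratio, Saos-2-2 over Saos-2, of 1 cDNA clone, normalized within each array, with its standard error (SE) from limma over n = 2 arrays. Net intensity is the mean foreground minus the local background in scanner units, before normalization. Testing required that on each array the foreground of 1 line or the other reached 1.5 times its background, which 34674 probes met. The 54 tested member clones covered all 33 genes. The other 8 clones were those of ITGA9, ITGAX, LAMA2 and LAMC3, 6 in all with no usable spot, and 1 each of ITGB6 and ITGB8 that was usable on replicate 2 only, with log2 ratios of 0.39 and -0.22. Since every clone passed with a signal in at least 1 line, the genes without a usable spot have no level here.

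TSG101 itself gave a log2 ratio of -0.36 (SE 0.12, -0.48 and -0.24 on the arrays, adjusted p = 0.201 in limma). The median foreground over background of the tested probes was between 3.85 and 4.10 in each channel of each array, and no member spot was saturated. Of the genes that mark an osteoblast or mesenchymal cell, 9 of 10 were measured, among them RUNX2, ALPL, IBSP and COL1A1, with foregrounds of 3.02 to 191 times background in Saos-2. Leukocyte, platelet, endothelial and epithelial markers also gave foregrounds above background on these arrays, with medians of 2.64, 3.61, 3.24 and 9.97 in Saos-2 over 7, 3, 4 and 7 genes. Beside the members, IBSP, COL3A1 and VIM of the first list and CD14, CD79A and PF4 of the others were lower in Saos-2-2 at an unadjusted p under 0.05, and their part in the results of the members was not tested.

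Of the 54 tested member clones 14 were lower in Saos-2-2 at an unadjusted p under 0.05 in limma, or 25.9%, where 9.70% of all tested probes were, and 3 were higher, or 5.56%, where 13.5% of all tested probes were. The 14 clones belonged to the integrin chains ITGA3, ITGA4, ITGA5, ITGA8, ITGAV, ITGB2, ITGB3 and ITGB4, to LAMC1 and to NID2. The higher clones were those of ITGB6, NPNT and LAMA1. After adjustment over all probes 0 member clones passed 0.05 in limma, as did 0% of all probes, and the smallest adjusted p was 0.106, in the members as over all probes. With the log2 ratios that the authors deposited in place of the intensities, 10 member clones passed an adjusted p of 0.05 in limma, where 6.19% of all probes did. Of these clones 8 were lower and 2 higher, where 1.62% of all probes passed below 0 and 4.57% above it. The 10 were clones of ITGA3, ITGA4, ITGA5, ITGAV and NID2 below 0 and of ITGB6 and NPNT above it. At an unadjusted p under 0.05, 16 of the 54 clones were then lower and 7 higher, beside 13.4% and 14.0% of all probes, so that the smaller share of higher clones among the members was not seen with these values.

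The members lay on both sides of 0, with 26 below and 28 above and a median of 0.03 (all probes, -0.01). Of the 36 integrin clones 21 were below 0 and 15 above it, with a median of -0.27. At an unadjusted p under 0.05 in limma, 12 were lower (33.3%) and 1 was higher (2.78%), where 9.70% and 13.5% of all tested probes were. Of the 17 clones of laminins and linkers 5 were below 0 and 12 above it, with a median of 0.16. At that threshold 2 were lower (11.8%), near the share of all probes, and 1 was higher (5.88%). In 10 of these 17 the arrays had opposite signs, where 10143 of all 34674 tested probes did. These are counts over clones, not over genes: the 36 integrin clones came from 20 genes, and ITGA4 alone gave 3 of the lower clones. Clones of the same gene are not independent. The genes were chosen with results known, and the difference between the families was not tested.

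**Figure D1:**
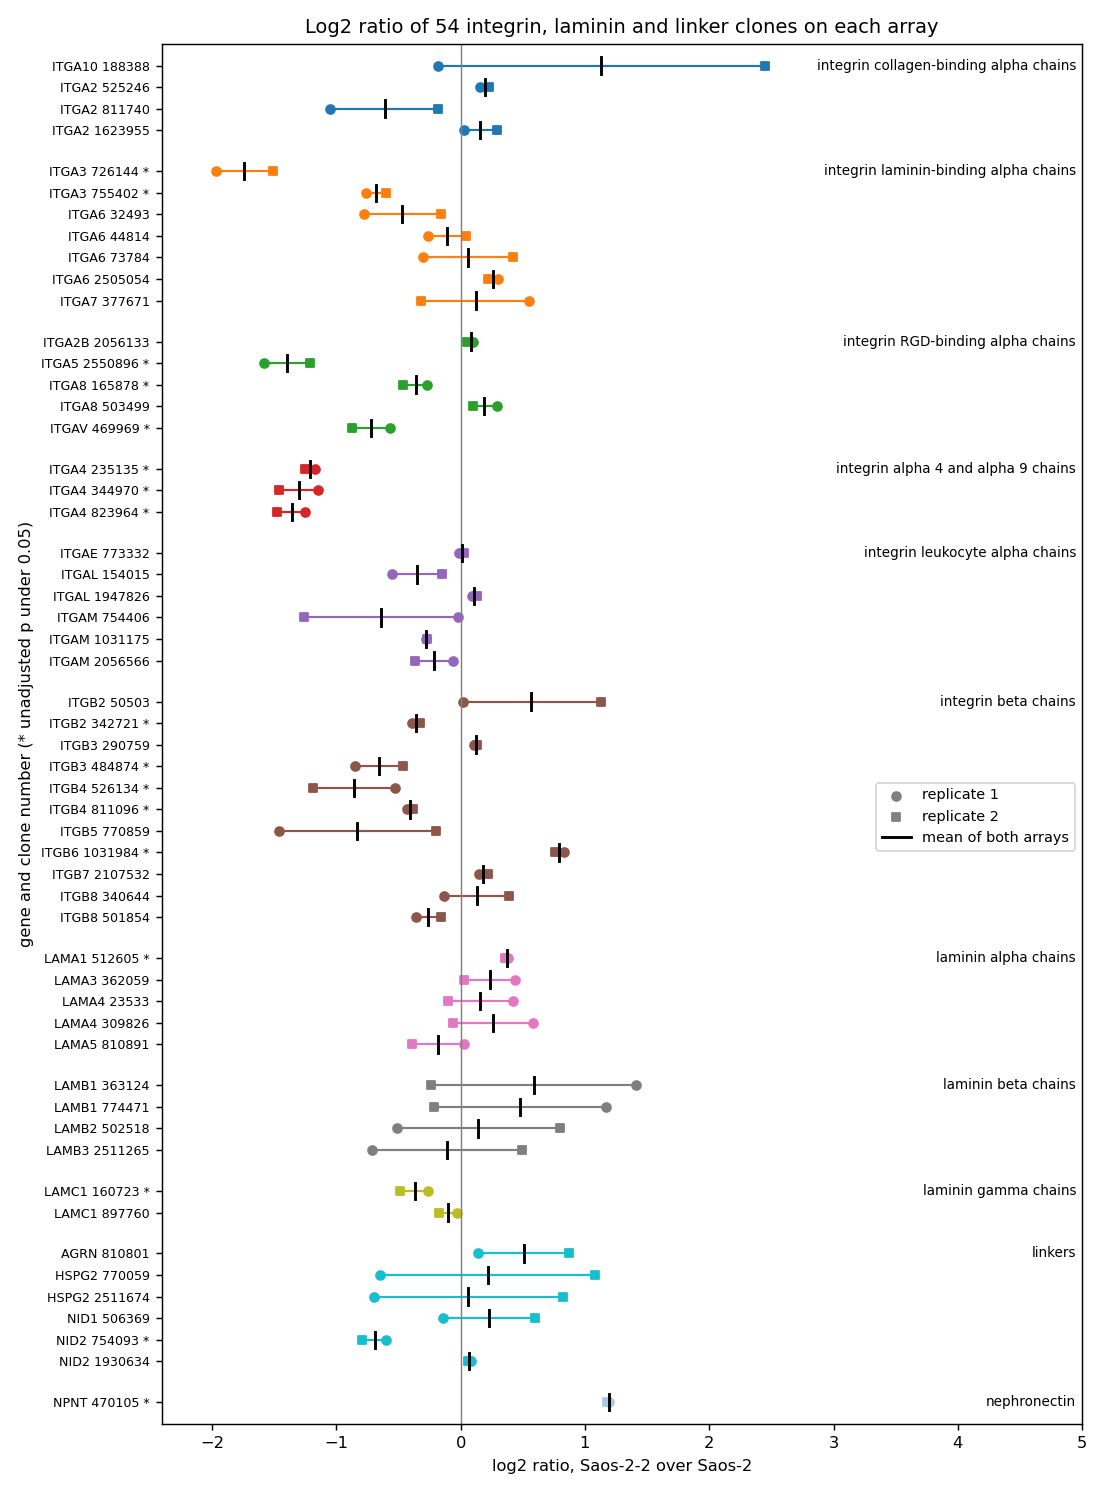
Log2 ratio of Saos-2-2 over Saos-2 (horizontal axis) for each of the 54 tested clones, named by gene and clone number and grouped by role. Circles and squares are the arrays of replicates 1 and 2, black bars their mean, and stars mark an unadjusted p under 0.05 in limma; the 3 ITGA4 clones lie together near -1.3, NPNT and ITGB6 lie above 0 on both arrays, and the laminin beta chains reach across 0.

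The alpha chains with the lowest ratios were ITGA3, ITGA5 and ITGA4. ITGA4 forms the receptor for VCAM1 and for a splice form of fibronectin, and ITGA5 the main fibronectin receptor. Among the genes above 0, ITGB6 partners ITGAV in a receptor that binds latent TGF-beta in epithelia, and NPNT (nephronectin) is a matrix protein that ITGA8 binds, in mice needed for normal kidney growth. The 250 bases before the RefSeq start of these members (build GRCh38.p14, shown 5′ to 3′ on the strand of the gene) are given because they have the most extreme ratios that both arrays share. ITGA3 had no window. Capitals mark matches on either strand to the motifs searched, of which these windows held GGGCGG, the GC box, and GGAATG, the core bound by TEAD factors.
ITGA4 (chr2:181457136-181457385, plus strand): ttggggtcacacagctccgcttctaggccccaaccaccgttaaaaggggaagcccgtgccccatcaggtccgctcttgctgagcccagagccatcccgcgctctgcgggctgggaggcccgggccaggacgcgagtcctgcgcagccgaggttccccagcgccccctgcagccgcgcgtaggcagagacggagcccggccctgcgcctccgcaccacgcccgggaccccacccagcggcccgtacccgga
ITGA5 (chr12:54419267-54419516, minus strand): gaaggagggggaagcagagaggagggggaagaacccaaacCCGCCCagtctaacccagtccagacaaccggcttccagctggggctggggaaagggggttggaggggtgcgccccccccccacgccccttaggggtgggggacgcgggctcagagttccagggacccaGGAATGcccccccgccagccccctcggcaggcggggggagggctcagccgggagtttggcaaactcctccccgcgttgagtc
ITGB6 (chr2:160200273-160200522, minus strand): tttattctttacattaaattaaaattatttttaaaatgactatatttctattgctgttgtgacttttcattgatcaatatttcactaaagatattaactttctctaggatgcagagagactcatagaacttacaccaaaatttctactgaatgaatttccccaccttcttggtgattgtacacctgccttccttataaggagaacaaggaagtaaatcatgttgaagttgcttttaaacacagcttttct
NPNT (chr4:105895221-105895470, plus strand): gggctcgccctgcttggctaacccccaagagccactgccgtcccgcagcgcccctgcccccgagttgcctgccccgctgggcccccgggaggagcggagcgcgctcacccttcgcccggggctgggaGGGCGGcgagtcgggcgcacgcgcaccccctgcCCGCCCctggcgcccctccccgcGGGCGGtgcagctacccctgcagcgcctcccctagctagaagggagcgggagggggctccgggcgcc

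The ITGA5 window held 1 GC box and 1 GGAATG, and the NPNT window held 3 GC boxes. The windows of ITGA4 and ITGB6 held none of the 4 motifs searched. The windows also differed in base composition, with a GC content of 72.8% for ITGA4, 70.0% for ITGA5, 30.0% for ITGB6 and 79.2% for NPNT, where the median of all 35097 RefSeq windows was 58.0%. Of the 33 tested genes 25 had a window, 31 windows in all. Their median GC content was 64.0%. A GC box was in 20 of these (64.5%) and in 42.6% of all windows, GGAATG in 2 (ITGA5 and ITGA10, 6.5%) and in 11.9%. TGANTCA, bound by AP-1, was in 2 (LAMA3 and LAMB3, 6.5%) and in 6.6% of all, and TGTGGT, bound by RUNX factors, in 2 (ITGA6 and NID2, 6.5%) and in 11% of all. Each motif was searched on both strands, and no position was shared by matches in the sequences printed. The motifs are letters in a window and show nothing of a factor's binding.

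ITGA4 was low with every clone. Its 3 clones, spotted on the main plates, gave net intensities on replicate 1 of 914, 998 and 1848 for Saos-2 against 346, 385 and 664 for Saos-2-2. The values of replicate 2 were 700, 1115 and 2331 against 291, 402 and 831. Each of the 6 measurements was thus higher in the parent. The log2 ratios on the arrays were -1.17 and -1.25 for clone 235135, -1.15 and -1.46 for clone 344970, and -1.25 and -1.48 for clone 823964. Their means were -1.21 (SE 0.10), -1.30 (SE 0.13) and -1.36 (SE 0.12), or 2.31-fold, 2.47-fold and 2.57-fold lower, each with an adjusted p of 0.106 in limma. ITGA9, the chain most like ITGA4 in sequence, had no usable spot.

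ITGA5 had net intensities of 638 and 565 in Saos-2 on replicates 1 and 2, and of 170 and 239 in Saos-2-2. Its single clone, 2550896, had log2 ratios of -1.58 and -1.21, with a mean of -1.40 (SE 0.14), 2.63-fold lower (adjusted p = 0.106 in limma).

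ITGA3, a laminin receptor chain, was lower with both of its clones, by different amounts. Clone 726144 had net intensities of 943 and 938 in Saos-2 and of 189 and 322 in Saos-2-2. Its log2 ratios were -1.97 and -1.51, and their mean of -1.74 (SE 0.16, 3.34-fold lower, adjusted p = 0.106 in limma) was the lowest of all members. Clone 755402 went from 365 and 347 in Saos-2 to 187 and 237 in Saos-2-2, with log2 ratios of -0.76 and -0.60 and a mean of -0.68 (SE 0.11, adjusted p = 0.112 in limma). The clones thus had the same sign on both arrays and lay 1.06 apart on the log2 scale. The former was on a plate of individually contributed clones, and the latter had a nonzero code in the column that the array files head Failed.

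ITGAV, the alpha chain of the vitronectin receptors, had net intensities of 1564 and 1385 in Saos-2 and 918 and 767 in Saos-2-2. Its log2 ratios were -0.57 and -0.87, with a mean of -0.72 (SE 0.13, 1.65-fold lower, adjusted p = 0.119 in limma). This clone, 469969, also had a nonzero Failed code, and ITGAV had no other clone.

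ITGA8, the nephronectin receptor chain, gave clones that differed in sign. Clone 165878 had net intensities of 38 and 45 in Saos-2 and 26 and 29 in Saos-2-2, and log2 ratios of -0.27 and -0.46 (mean -0.36, SE 0.11, adjusted p = 0.186 in limma). With clone 503499 the values were 19 and 24 in Saos-2 and 35 and 37 in Saos-2-2, and the log2 ratios 0.29 and 0.10 (mean 0.19, SE 0.11, adjusted p = 0.363 in limma). Both lay near the background, so that a direction for ITGA8 cannot be given. ITGA2B, the platelet RGD chain, had a log2 ratio of 0.08.

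**Figure D2:**
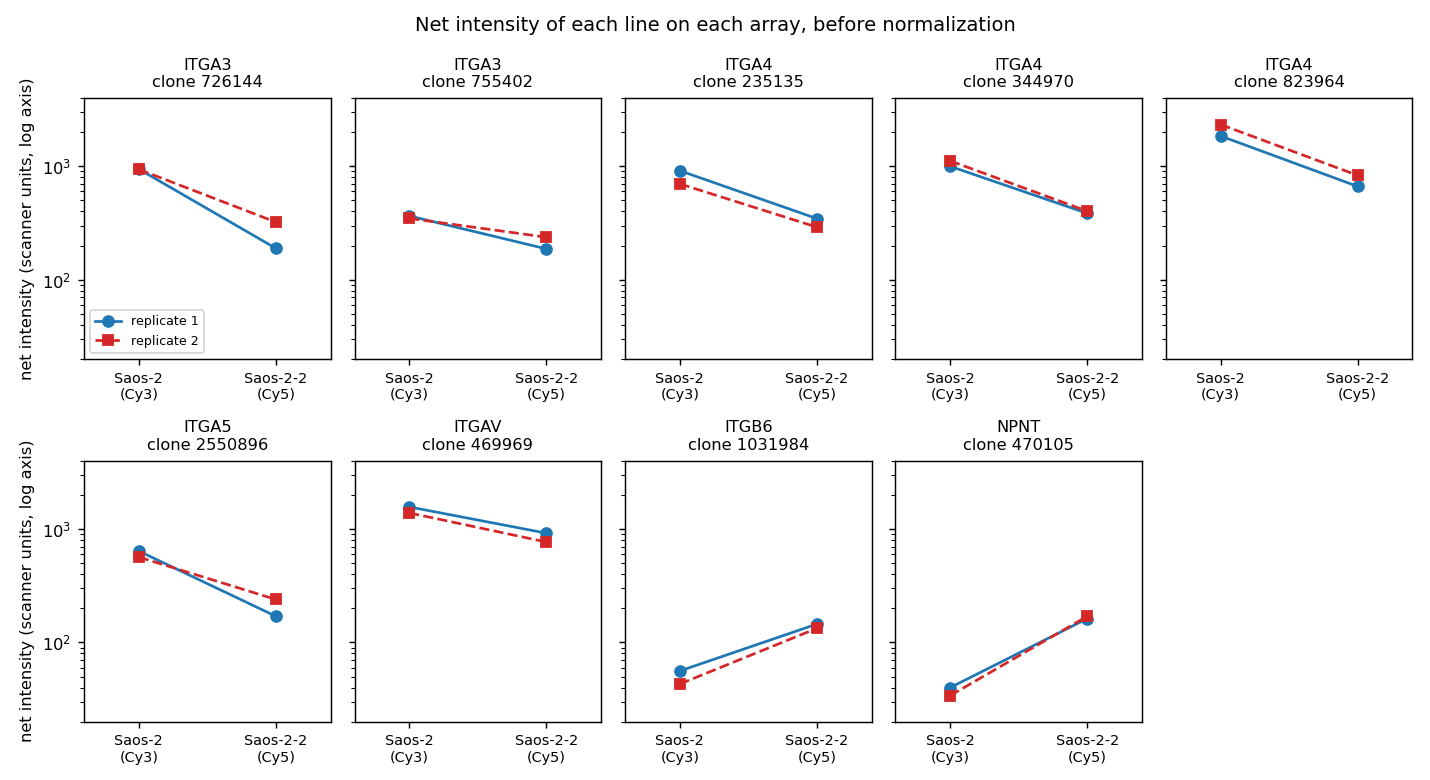
Net intensity in scanner units (vertical log axis) of Saos-2 and Saos-2-2 on the arrays of replicates 1 and 2, before normalization, for every tested clone of ITGA3, ITGA4, ITGA5, ITGAV, ITGB6 and NPNT, 1 panel per clone. All 7 clones of the ITGA genes are dimmer in Saos-2-2 on both arrays, and ITGB6 and NPNT run the other way.

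The other laminin receptor chains had no ratio of that size. ITGA6 was measured with 4 clones, whose log2 ratios were -0.47, -0.11, 0.06 and 0.26, and ITGA7 with 1, at 0.12 (0.55 and -0.32 on the arrays). None had an unadjusted p under 0.05. The collagen receptor chain ITGA2 had log2 ratios of -0.61, 0.16 and 0.20 with its 3 clones, the first of them (811740) at -1.05 and -0.18 on the arrays.

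ITGA10, a collagen receptor chain of cartilage, had the second-highest mean ratio of the members, and its arrays disagreed. Saos-2 had net intensities of 323 and 246 on the arrays, and Saos-2-2 had 264 and 1645. The log2 ratios were therefore -0.18 and 2.45, with a mean of 1.13 (SE 0.69, adjusted p = 0.38 in limma). Without replicate 2 the gene has a ratio below 0.

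The leukocyte chains, which serve the adhesion and traffic of blood cells, had no unadjusted p under 0.05 in limma. ITGAE was at 0.01, and ITGAL at -0.35 and 0.11 with its clones. The clones of ITGAM were at -0.64 (-0.02 and -1.26 on the arrays), -0.28 and -0.21. ITGB2, the beta chain that ITGAL and ITGAM share, was measured with clones that disagreed. Clone 342721 had net intensities of 55.5 and 50.5 in Saos-2 and 36.5 and 43.5 in Saos-2-2. In both lines this clone lay near the background, with foregrounds of 1.76 to 2.21 times it. Its log2 ratios were -0.39 and -0.33 (mean -0.36, SE 0.10, adjusted p = 0.174 in limma). Clone 50503 had 113 and 122 in Saos-2 and 121 and 364 in Saos-2-2, with log2 ratios of 0.02 and 1.13 (mean 0.57, SE 0.30, adjusted p = 0.333 in limma). The general leukocyte marker PTPRC had a log2 ratio of -0.11.

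Of the other beta chains, ITGB4 was lower with both clones. ITGB4 pairs with ITGA6 in hemidesmosomes, where it binds laminin. Clone 526134 had net intensities of 458 and 450 in Saos-2 and 283 and 192 in Saos-2-2, with log2 ratios of -0.53 and -1.19 (mean -0.86, SE 0.20, adjusted p = 0.144 in limma). Clone 811096 had 141 and 118 in Saos-2 and 101 and 107 in Saos-2-2, with log2 ratios of -0.43 and -0.38 (mean -0.41, SE 0.10, adjusted p = 0.153 in limma). Both clones were dimmer in Saos-2-2 on both arrays before normalization.

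ITGB3, a partner of ITGAV in the vitronectin receptor of osteoclasts and platelets, was lower with 1 of its clones only. Clone 484874 had net intensities of 218 and 216 in Saos-2 and 102 and 167 in Saos-2-2, with log2 ratios of -0.85 and -0.46 (mean -0.66, SE 0.14, adjusted p = 0.136 in limma). Clone 290759 had 71 and 50 in Saos-2 and 88 and 79 in Saos-2-2, with log2 ratios of 0.11 and 0.13 (mean 0.12, SE 0.10, adjusted p = 0.519 in limma). The latter was on the contributed plate.

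ITGB6 had the highest mean ratio of the tested beta chain clones. Clone 1031984 had net intensities of 56 and 43 in Saos-2 and of 145 and 133 in Saos-2-2. The log2 ratios were 0.83 and 0.76, with a mean of 0.79 (SE 0.10, 1.73-fold higher, adjusted p = 0.106 in limma). In Saos-2 the clone lay near the background, with foregrounds of 2.27 and 1.93 times it. The mean was 1.25 with plain background subtraction and 1.29 with the deposited log2 ratios. ITGB5, which also pairs with ITGAV, had log2 ratios of -1.46 and -0.20 (mean -0.83, SE 0.34, adjusted p = 0.257 in limma). Its 3 spots lay between -1.56 and -1.41 on replicate 1 and between -0.32 and -0.12 on replicate 2. The spots of an array thus differed far less than the arrays did. ITGB7 was at 0.18, and ITGB8 at -0.26 and 0.13 with its clones.

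NPNT had the highest mean ratio of the members, 1.19 (SE 0.10, 2.28-fold higher, adjusted p = 0.106 in limma). Its clone 470105 had net intensities of 40 and 34 in Saos-2 and of 162 and 170 in Saos-2-2, and log2 ratios of 1.19 and 1.18. NPNT is in the list of changed genes that the paper drew from these arrays, so that this value is no independent support for that list. The clone was on the contributed plate. Of the 254 tested probes that were only there, 16.9% lay above 0 and 16.5% below it with an unadjusted p under 0.05, and 8 were member clones. In Saos-2 this clone lay near the background, with foregrounds of 1.93 and 1.77 times it. The mean was 1.91 with plain background subtraction and 2.08 with the deposited log2 ratios. The size of the NPNT ratio thus depended on the processing.

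Among the laminin alpha chains, LAMA1 was the only one with an unadjusted p under 0.05. LAMA1 is the alpha chain of the embryonic laminin. Its net intensities were 82 and 75 in Saos-2 and 129 and 137 in Saos-2-2, with log2 ratios of 0.38 and 0.36 (mean 0.37, SE 0.10, adjusted p = 0.165 in limma), and the clone had a nonzero Failed code. LAMA3, of epithelial laminin, was at 0.24 and LAMA5 at -0.18. LAMA4, of mesenchymal and vessel laminin, was at 0.16 and 0.26 with its clones, both above 0 on replicate 1 (0.42 and 0.58) and below it on replicate 2 (-0.10 and -0.06).

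LAMC1, the gamma chain of most laminins, was lower by a small amount with 1 clone. Clone 160723 had mean net intensities of 243 and 296 over 3 spots in Saos-2 and of 190 and 222 in Saos-2-2, with log2 ratios of -0.26 and -0.49 (mean -0.37, SE 0.12, adjusted p = 0.192 in limma). Clone 897760 had 500 and 467 in Saos-2 and 449 and 444 in Saos-2-2, with log2 ratios of -0.03 and -0.17 (mean -0.10, SE 0.11, adjusted p = 0.602 in limma). Both clones were below 0 on both arrays.

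NID2, a nidogen that ties laminin to type IV collagen, had clones that disagreed. Clone 754093 had net intensities of 86 and 89 in Saos-2 and of 47 in Saos-2-2 on both arrays. In Saos-2-2 this clone lay near the background, with foregrounds of 2.02 and 1.92 times it. Its log2 ratios were -0.60 and -0.79 (mean -0.69, SE 0.11, 1.62-fold lower, adjusted p = 0.113 in limma). Clone 1930634 had 183 and 148 in Saos-2 and 193 and 183 in Saos-2-2, with log2 ratios of 0.08 and 0.06 (mean 0.07, SE 0.10, adjusted p = 0.702 in limma). The other nidogen, NID1, was at 0.23 (-0.14 and 0.60), and agrin (AGRN), which gathers acetylcholine receptors at the muscle synapse, at 0.51 (0.14 and 0.87).

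The array design allows different clones of a gene to be compared. Of the 16 genes with several tested clones, 8 had all mean ratios on the same side of 0 and 8 did not. ITGA3, ITGA4, ITGAM, ITGB4, HSPG2, LAMA4, LAMB1 and LAMC1 were in the former group. In HSPG2, LAMA4 and LAMB1, however, each clone had opposite signs on the arrays, so that the shared side of their means gives no direction. The same share over all genes with several clones was not analysed here. ITGA2, ITGA6, ITGA8, ITGAL, ITGB2, ITGB3, ITGB8 and NID2 were in the latter group, where the clones lay 0.39 to 0.93 apart. The clones of ITGA4 lay within 0.15 of each other. Which part of a transcript each clone matches was not analysed here.

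The laminin beta chains and perlecan (HSPG2) could not be placed above or below 0, because the arrays disagreed. LAMB1, the beta chain of laminins of many tissues, had log2 ratios of 1.41 and 1.17 with its clones on replicate 1 and of -0.24 and -0.21 on replicate 2. LAMB2, the beta chain of synaptic and kidney laminin, was at -0.51 and 0.80, and LAMB3, of epithelial laminin, at -0.71 and 0.49. The clones of HSPG2 were at -0.70 and -0.65 on replicate 1 and at 0.82 and 1.08 on replicate 2. LAMB1 was thus higher in Saos-2-2 on replicate 1 only, and LAMB2, LAMB3 and HSPG2 on replicate 2 only. Clones of the same gene agreed on each array, and the adjusted p-values of these 6 clones lay between 0.463 and 0.944 in limma.

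In all, 10 of the 54 member clones (18.5%) had arrays more than 1 apart on the log2 scale, and 3.07% of all tested probes did. Beside those 6 they were clones of ITGA10, ITGB5, ITGB2 and ITGAM. In 9 of the 10 the Saos-2-2 channel differed more between the arrays than the Saos-2 channel, as it did in 988 of the 1066 probes so far apart. The LAMB1 clone 363124, for example, had net intensities of 177 and 304 in Saos-2 and 518 and 278 in Saos-2-2, and the HSPG2 clone 770059 had 132 and 164 in Saos-2 and 73 and 443 in Saos-2-2. After normalization of the channels, the HSPG2 clone differed by 1.94 between replicates 2 and 1 in Saos-2-2 and by 0.21 in Saos-2. ITGAM clone 754406 was the exception, with 0.73 in Saos-2 and -0.50 in Saos-2-2. Signs differed between the arrays in 16 of 54 member clones and in 10143 of 34674 probes. What set the replicates apart was not tested.

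**Figure D3:**
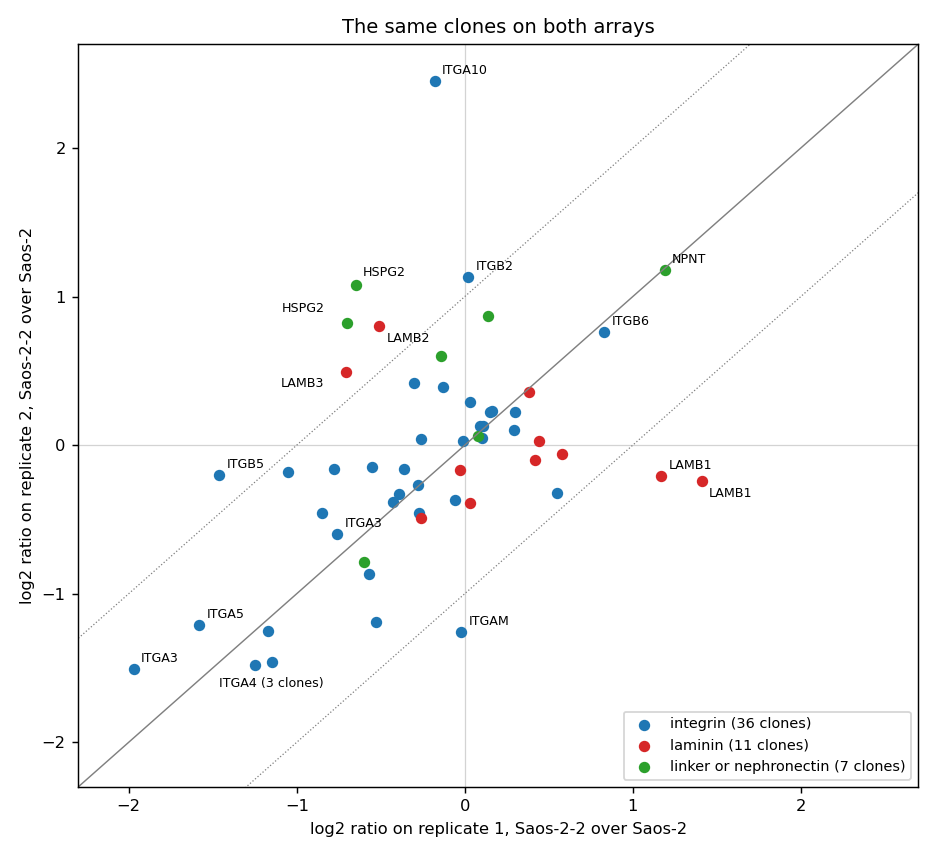
Log2 ratio of each tested member clone on replicate 1 (horizontal axis) and on replicate 2 (vertical axis), colored by family, with the line of equal values and dotted lines 1 above and below it. The clones of ITGA3, ITGA4, ITGA5, ITGB6 and NPNT lie near the line, and 10 clones, all 4 of the laminin beta chains among them, lie outside the dotted lines.

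**Figure D4:**
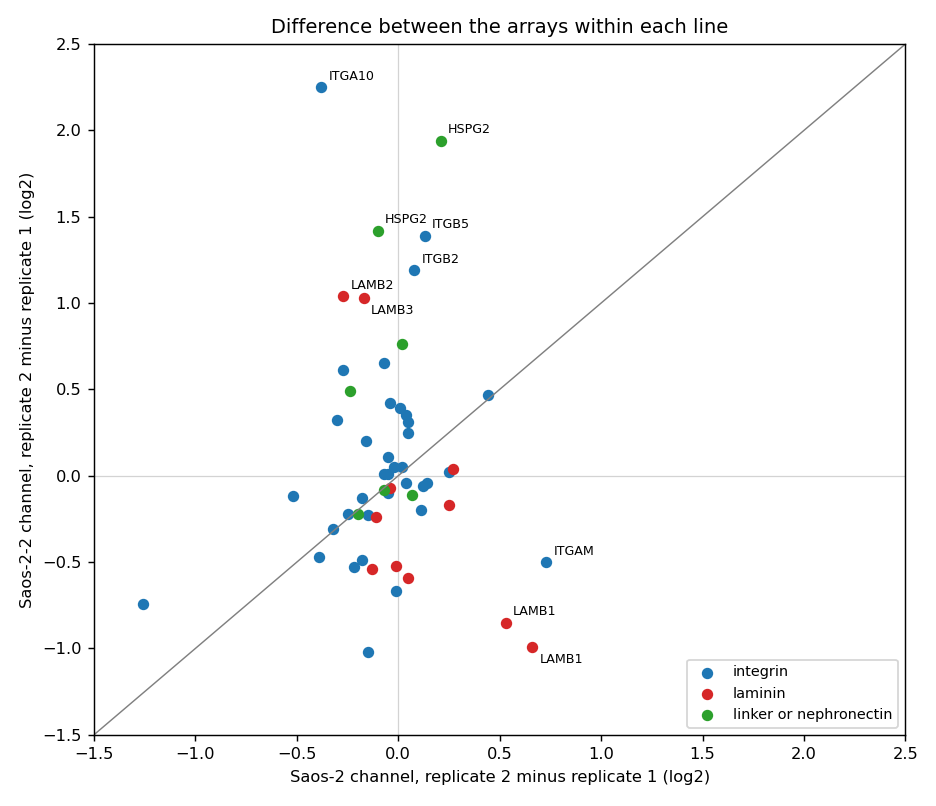
Difference between replicates 2 and 1 on the log2 scale in the normalized Saos-2 channel (horizontal axis) and in the normalized Saos-2-2 channel (vertical axis) of each tested member clone, with the line of equal values. HSPG2, ITGA10, ITGB5, ITGB2, LAMB2 and LAMB3 lie high and LAMB1 low on the vertical axis, with smaller differences on the horizontal axis.

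Integrins act through adaptors that hold them to actin and through kinases, and 38 of 46 listed genes of that kind were measured, each by its brightest clone. At an unadjusted p under 0.05 in limma, 9 were lower (23.7%) and 5 higher (13.2%), where 11.3% and 11.8% of all 13223 genes were, with a median of -0.14 (all genes, -0.02) and 0 past an adjusted p of 0.05. The lowest were FLNC, a filamin that crosslinks actin, at -1.71 (-1.41 and -2.01) and LIMS1, the partner of integrin-linked kinase, at -0.83, although its 4 clones ran from -0.83 to 0.23. The highest were the kinase FYN at 0.46 and, equal at the precision given, TNS4 (0.48 and 0.35) and the focal adhesion kinase PTK2 (0.72 and 0.12) at 0.42. With its dimmer clone PTK2 was at 0.56 (0.32 and 0.80), and the 4 clones of FYN ran from 0.17 to 0.50.

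Of the integrin ligands other than laminins 34 of 36 were measured, with a median of -0.05. At an unadjusted p under 0.05 in limma, 8 were lower (23.5%) and 6 higher (17.6%), where 11.3% and 11.8% of all genes were. An adjusted p of 0.05 in limma was passed by 0 of them. TGFBI, a matrix protein that binds ITGA3 and ITGAV receptors, was the lowest at -2.37 (-2.46 and -2.28), followed by CCN1, a matricellular ligand of ITGAV receptors, at -1.85 (-2.37 and -1.32). VCAM1, the ligand of ITGA4, was at 1.51 (1.47 and 1.56), so that receptor and ligand lay on opposite sides of 0 on both arrays. SPP1 (osteopontin), a bone ligand of ITGAV, had the highest mean, 1.64, with arrays at -0.91 and 4.20.

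Other basement membrane genes and their receptors numbered 36 measured of 43, with a median of -0.08. At an unadjusted p under 0.05 in limma, 3 were lower and 3 higher (8.33% each), where 11.3% and 11.8% of all genes were. An adjusted p of 0.05 in limma was passed by 0 of them. The lowest were NTN4, a netrin that binds laminin, at -1.03 (-0.91 and -1.15) and the anchoring fibril collagen COL7A1 at -0.84 (-1.56 and -0.12). The highest were the type IV collagen chains COL4A1 at 0.87 (1.45 and 0.29) and COL4A5 at 0.69 (0.04 and 1.34), neither with an unadjusted p under 0.05. The other tested clone of COL4A1, the dimmer of the pair, was at 0.30 (0.41 and 0.19). Another clone of COL4A5 was marked as unusable on both arrays and gave no value.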

How the data were processed

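The deposited scanner files hold the authors' linear foreground and background intensities of both channels without normalization. The deposited series table holds log2 ratios. They equal the values that the scanner software heads as a normalized log2 ratio of medians, at every spot with a value, 41285 and 41298 on the arrays. Agilent Feature Extraction is named in the submitters' processing notes, without a version.

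Intensities were analysed in R 4.3.3 with limma 3.58.1. Mean foregrounds were corrected by normexp (offset 50), each array was normalized by global loess, 226 control spots and spots marked unusable (3749 and 4381) were left out, and spots of a clone were averaged. Clones with a foreground of 1.5 times background or more in 1 channel on both arrays were tested against a log2 ratio of 0 by the moderated statistic of limma (2.75 prior degrees of freedom), with Benjamini-Hochberg adjustment over all 34674 probes. Channels were compared between arrays after Aquantile scaling. Simulated data served only to check that the fit works. Their planted log2 ratios were larger in size than the mean of any member clone, and their noise was set below the spread between these arrays. They therefore give no measure of what these arrays can detect. The number of arrays, 2, limits the precision.

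The members and lists were chosen with earlier results of these data known. Every member is named. Those with a clone at an unadjusted p under 0.05 or a mean log2 ratio of 1 or more in size are given in full, and of the other lists the 2 highest and 2 lowest genes, with the cell type markers among them picked after their values were seen. Alternatives changed the background correction, foreground, normalization, filters, variance model, values used and clone per gene. Leaving out clones with a nonzero Failed code (its meaning is not stated in the files) and leaving out the contributed plate were added after the data were seen. Promoter windows are RefSeq's (GRCh38.p14). Integrin protein sequences were not analysed here. Python 3.11.15 and matplotlib 3.10.9 made the plots.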

Additional observations from a re-analysis of the deposited data

How the results depend on the processing

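No paired analysis was possible because the study has a single group of 2 arrays, so that no replicate number is shared between groups. Each log2 ratio already is the difference of both lines within an array. The count of 0 member clones past an adjusted p of 0.05 in limma became 10 with the deposited log2 ratios, beside 6.19% of all probes. It stayed at 0 under the other alternatives that were tested. Higher clones at an unadjusted p under 0.05 numbered 3, but 5 with plain background subtraction, 5 with median centring and 7 with the deposited log2 ratios, beside 14.5%, 14.7% and 14.0% of all probes. Lower clones stayed within 1.5 times of 14. The median of the members, 0.03, changed sign with most alternatives, to -0.01 with print-tip loess, -0.06 with median centring, -0.04 with unusable spots kept, -0.15 with the deposited log2 ratios, -0.05 without clones of a nonzero Failed code and -0.10 without the contributed plate. It was 0.07 with 1 clone per gene, and -0.16 to -0.13 with 1 array left out. Without clones of a nonzero Failed code 12 of 46 were lower and 2 higher (all probes, 9.95% and 13.7%), and without the contributed plate 13 of 45 and 2 (9.75% and 13.6%). Causes were not tested.

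Of 575 values of single clones under 11 alternatives, 553 kept their sign and side of the threshold, 10 passed it in addition and 12 changed sign. The last were ITGA6 clone 73784 (0.00) and ITGAE (-0.02) with print-tip loess, HSPG2 clone 2511674 (-0.04) and ITGAE (-0.07) with median centring, and ITGB8 clone 340644 (-0.11) with unusable spots kept. With the deposited log2 ratios they were NID2 clone 1930634 (0.00), ITGA2B (-0.02), LAMB2 (-0.02), ITGB8 clone 340644 (-0.13), HSPG2 clone 2511674 (-0.18), ITGAE (-0.15) and ITGA7 (-0.12). Leaving out an array turned the sign of 16 clones. Their lowest and highest values were -0.10 and 0.42 for LAMA4 clone 23533, -0.06 and 0.58 for LAMA4 clone 309826, -0.24 and 1.41 for LAMB1 clone 363124, -0.21 and 1.17 for LAMB1 clone 774471, -0.71 and 0.49 for LAMB3, and -0.51 and 0.80 for LAMB2. For LAMA5 they were -0.39 and 0.03, for NID1 -0.14 and 0.60, for HSPG2 clone 770059 -0.65 and 1.08, and for HSPG2 clone 2511674 -0.70 and 0.82. They were -0.18 and 2.45 for ITGA10, -0.32 and 0.55 for ITGA7, -0.26 and 0.04 for ITGA6 clone 44814, -0.30 and 0.42 for ITGA6 clone 73784, -0.13 and 0.39 for ITGB8 clone 340644, and -0.01 and 0.03 for ITGAE. For ITGB8 clone 340644 the arrays do not rest on the same spots. Its only usable spot on replicate 1 was that of the contributed plate, at -0.13. On replicate 2 that spot was at 1.06 and a spot of the main plates at -0.27. Dim clones, such as those of ITGA8 and ITGB7, lay near the local background.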
